A study of Mus musculus with 2 samples.

Results

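Pulmonary surfactant is made by alveolar type 2 (AT2) cells, and 9 genes of its production were followed here: *Sftpc*, *Sftpb*, *Sftpa1*, *Sftpd*, *Lamp3*, *Abca3*, *Slc34a2*, *Napsa* and *Lpcat1*. They were chosen by symbol, make up 9 of the 32285 genes in the count matrices, and all 9 were detected in both libraries. The study compared the lungs of 1 control mouse and 1 *Gli1 HHIPCKO* mouse at postnatal day 14. Both mice carried the *Gli1creERT* allele and floxed *Hhip* alleles. The *Gli1 HHIPCKO* mouse was given tamoxifen, which activates the recombinase, and the control mouse was given oil. Cre activity was limited to cells with an active Gli1 promoter, a stromal population in lung, so AT2 cells were not the intended site of deletion. Stromal and epithelial cells were sorted as negative for CD45 and CD31 and were mixed at 3 to 1 before droplet capture, so the ratio of stroma to epithelium in the libraries was set by hand. The control library held 10999 barcodes and 43291709 UMIs (unique molecular identifiers, each a counted transcript), with a median of 3531 UMIs per barcode. The *Gli1 HHIPCKO* library held 12350 barcodes and 52338969 UMIs, with a median of 3720.0.

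Surfactant is a film of phospholipid and protein that lowers surface tension at the air-liquid interface of the alveolus. Its lipids and the small hydrophobic proteins SP-B and SP-C are packed in lamellar bodies, secretory organelles related to lysosomes, whereas the collectins SP-A and SP-D bind microbes and regulate surfactant uptake. The proteins SP-B and SP-C are cut from larger precursors on the way to the lamellar body. The question addressed here is how these genes were distributed over the cell classes of the lung and how their levels compared between the mouse with stromal *Hhip* deletion and its control.

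*Hhip*, the deleted gene, was examined first. In the mesenchymal classes it had 10802 UMIs in control, or 662 CPM (UMIs per 1000000 UMIs of the class), and 3574 UMIs or 162 CPM in *Gli1 HHIPCKO*. It fell by 2.03 on the log2 scale (95% interval -2.08 to -1.97). The make-up of the mesenchymal classes differed between libraries, with 1295 control and 26 *Gli1 HHIPCKO* cells in myofibroblast-like cluster 5, 78 and 1982 in myofibroblast-like cluster 2, and 557 and 1868 alveolar fibroblast-like cells, so comparisons over these classes cross that shift. In AT2-like cells *Hhip* had few UMIs and fell from 56 to 26 (3.69 and 1.53 CPM; log2 ratio -1.27, interval -1.9995 to -0.57), and the part of free RNA in this was not tested. Where the counted UMIs lie relative to the floxed exons was not analysed here. All intervals in the text are exact (Poisson for a level, binomial for a share or a ratio), at 95%, and cover counting error only, because each condition was 1 mouse and no test between conditions could be made. A difference of at least 2-fold was therefore used in place of a test. The libraries also differed in *Xist*, the RNA of the inactive X chromosome, which had 9 UMIs in control AT2-like cells (0.593 CPM) and 2145 UMIs (126 CPM) in those of *Gli1 HHIPCKO*. Sex, library and deletion therefore cannot be told apart. The libraries shared 193 barcode sequences, of which 185 passed the filters in both.

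After filtering, 10917 control and 12115 *Gli1 HHIPCKO* cells fell into 37 clusters, which were named from fixed markers with the 9 genes held out. AT2-like cells numbered 3325 in control and 2991 in *Gli1 HHIPCKO*, with medians of 4637 and 5615 UMIs. They were made of 3 clusters, and different clusters held most of them in each library: cluster 0 held 2459 control and 801 *Gli1 HHIPCKO* cells, cluster 1 held 514 and 2002, and cluster 12 held 352 and 188. All 10 AT2 markers were detected in clusters 0 and 1. Leading genes of cluster 0 included *Cxcl15*, *Lgi3* and *Cldn18* together with *Ager*, whereas *Rgcc*, *C2cd4b*, *Atf3* and *Lrg1* led cluster 1. The AT2 marker *Lyz2* was among the leading genes of both clusters, and the AT2 marker *Dram1* among those of cluster 1. Cluster 12 had a median of only 1020.0 UMIs and was led by *Rbpjl*, *Gm26917* and *Neat1*. No cluster met the criteria for alveolar type 1, basal or neuroendocrine cells.

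*Sftpc* alone supplied 13.8% of all UMIs of the control library and 11.9% of those of *Gli1 HHIPCKO*, and the 9 genes together supplied 15.4% and 13.8%. Most of these UMIs lay in AT2-like cells, which held 78.3% of the *Sftpc* UMIs in control and 74.3% in *Gli1 HHIPCKO*. Unnamed clusters held a further 17.4% and 21.7%, chiefly clusters 10 (led by *Depp1*, *S100g* and *Cxcl15*), 14 (*Inmt*, *Dcn* and *Scube2*) and 21 (*Cox4i2* and *Higd1b*), whose cells had medians of 7511, 7795 and 7115 UMIs and were marked as doublet-like in 72.3%, 70.1% and 67.1% of cases. Named clusters with as high a share were 19 (alveolar fibroblast-like, 76.9%), 22 and 26 (pericyte-like, 77.7% and 90.8%). The other named classes held 4.33% and 4.07%. The remaining 8 genes were divided in nearly the same way: AT2-like cells held between 76.2% (*Abca3*) and 80.5% (*Slc34a2*) of each gene's UMIs in control, and between 72.5% (*Lpcat1*) and 75.5% (*Slc34a2*) in *Gli1 HHIPCKO*.

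Within AT2-like cells, the 9 genes took up 34.4% of all UMIs in control (interval 34.35% to 34.40%) and 31.6% in *Gli1 HHIPCKO* (31.59% to 31.63%), with a log2 ratio of -0.12. The sum was largely *Sftpc*, which made up 89.6% of it in control and 86.5% in *Gli1 HHIPCKO*. As UMIs per cell the order was the opposite, with 1569.0 for the 9 genes in control and 1794.7 in *Gli1 HHIPCKO*, since the mean AT2-like cell had 4564 UMIs in control and 5678 in *Gli1 HHIPCKO*. The share and the count per cell thus differed in direction, and the part of sequencing depth in this was not tested. With *Sftpc* and the other members taken out of the total, the 8 genes besides *Sftpc* had 54376 UMIs per 1000000 remaining UMIs in control and 62617 in *Gli1 HHIPCKO*.

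The hydrophobic proteins come first. *Sftpc*, which encodes the precursor of SP-C, had 4675401 UMIs in control AT2-like cells and 4640751 in those of *Gli1 HHIPCKO*. This was 308079 CPM (307800.0 to 308358) in the control mouse against 273282 CPM (273033 to 273530.0) in the mutant mouse, and the log2 ratio was -0.17. *Sftpb* encodes the precursor of SP-B, the surfactant protein without which lamellar bodies do not form properly. It stood at 5659.7 CPM (5622 to 5698) in the control mouse against 6054 CPM (6017 to 6091) in the mutant mouse (log2 ratio 0.10, interval 0.08 to 0.11). The genes of the hydrophobic proteins thus lay on opposite sides of 0, both far inside the 2-fold limit.

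Among the collectins, *Sftpa1*, which encodes SP-A, had 302058 UMIs in control AT2-like cells and 440557 in those of *Gli1 HHIPCKO*. This was 19904 CPM (19833 to 19975) against 25943 CPM (25867 to 26020.0), with a log2 ratio of 0.38 (interval 0.38 to 0.39). Of the 9 members it was the one farthest from 0. *Sftpd*, which encodes SP-D, had 2082 CPM (2059 to 2105) in the control mouse against 2497 CPM (2473 to 2521) in the mutant mouse (log2 ratio 0.26, interval 0.24 to 0.28). Both collectin genes were above control in *Gli1 HHIPCKO* by less than 2-fold.

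*Abca3* encodes the transporter that moves phospholipid into lamellar bodies. It stood at 655 CPM (642 to 668) in control AT2-like cells against 592 CPM (581 to 604) in those of *Gli1 HHIPCKO* (log2 ratio -0.15, interval -0.19 to -0.11). *Lamp3* encodes a glycoprotein of the lamellar body membrane. At 475 CPM (464 to 486) against 480.2 CPM (469.8 to 491), its log2 ratio was 0.02, and the interval, -0.03 to 0.06, included 0. *Lpcat1* encodes the enzyme that rebuilds disaturated phosphatidylcholine from its lyso form. Its levels were 934 CPM (919 to 949) in the control mouse and 1043 CPM (1027 to 1058) in the mutant mouse (log2 ratio 0.16, interval 0.13 to 0.19). The transporter gene was thus below control, the enzyme gene above it, and the membrane protein gene level within counting error.

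*Napsa* encodes napsin A, an aspartic protease that takes part in cutting the SP-B precursor. It had 3075 CPM (3047 to 3103) in control AT2-like cells against 3231 CPM (3204 to 3258) in those of *Gli1 HHIPCKO* (log2 ratio 0.07, interval 0.05 to 0.09). *Slc34a2* encodes the sodium-phosphate cotransporter of the apical membrane, which takes up phosphate released from surfactant lipid. At 2900.1 CPM (2873 to 2927) against 2983 CPM (2957 to 3009), its log2 ratio was 0.04 (interval 0.02 to 0.06), with the opposite sign inside each of the 3 AT2-like clusters.

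None of the 9 genes, 0 of 9, passed the 2-fold limit in AT2-like cells in either direction. Among the 11069 genes with at least 50 UMIs in the class, 149 were past it upward (1.35%) and 119 downward (1.08%), so a count of 0 among 9 lies near this background and is no result about the members. By sign, 7 members were above control and 2 below it, but *Lamp3* and *Slc34a2* changed sign when the 9 genes were left out of the total, to -0.04 and -0.02. Under that scaling *Sftpb* was at 0.04, *Napsa* at 0.01 and *Lpcat1* at 0.10, all nearer to 0. The median log2 ratio of the members was 0.07, beside -0.01 over the 11069 genes. Among the 203 genes with at least as many UMIs as *Lamp3*, the member with the fewest, the median was 0.20. Only *Sftpa1*, ranked 56 from the top, and *Sftpd*, ranked 77, lay above that median. The other members lay below it, with *Lpcat1* at rank 108, *Sftpb* 118, *Napsa* 122, *Slc34a2* 130, *Lamp3* 140, *Abca3* 168 and *Sftpc* 176.

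**Figure D1:**
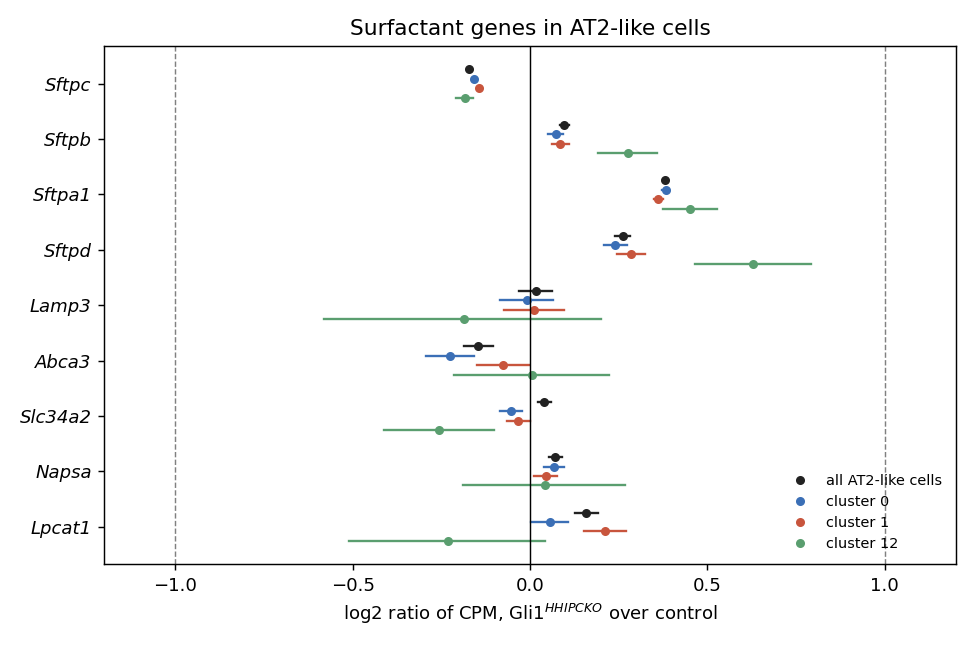
Log2 ratio of CPM, *Gli1 HHIPCKO* over control (horizontal axis), for each of the 9 genes in all AT2-like cells and in clusters 0, 1 and 12 alone; points are ratios, lines their exact 95% intervals (counting error only), and dashed lines the 2-fold limit. All points lie inside the limit, and *Slc34a2* is at 0.04 over all AT2-like cells but at -0.05, -0.03 and -0.26 in clusters 0, 1 and 12.

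The ratios were then taken inside each AT2-like cluster, a comparison chosen after the data were seen. *Sftpc* had log2 ratios of -0.16 in cluster 0, -0.14 in cluster 1 and -0.18 in cluster 12. *Sftpa1* had 0.38, 0.36 and 0.45 in the same clusters, and *Sftpd* had 0.24, 0.28 and 0.63. These 3 genes, *Sftpb* (0.07, 0.09 and 0.28) and *Napsa* (0.07, 0.04 and 0.04) were on the same side of control in every cluster as over all AT2-like cells. For *Napsa* the interval in cluster 12, -0.19 to 0.27, included 0. *Slc34a2* had a log2 ratio of 0.04 over all AT2-like cells, whereas it was below control in every cluster, at -0.05 (-0.08 to -0.02) in cluster 0, -0.03 (-0.07 to -0.00042) in cluster 1 and -0.26 (-0.41 to -0.10) in cluster 12. Its level in control was 2842 CPM in cluster 0 and 3143 CPM in cluster 1, so the mixture of clusters, which differed between libraries, moved its pooled ratio. *Lpcat1* was at 0.06 in cluster 0, 0.21 in cluster 1 and -0.23 in cluster 12, where its interval, -0.51 to 0.04, included 0. *Abca3* was at -0.23, -0.08 and 0.01.

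Cells of like depth were compared as well, also by choice after the data were seen. In the 1985 control and 2173 *Gli1 HHIPCKO* AT2-like cells of 4000 to 8000 UMIs, *Sftpc* was at 316898 and 276824 CPM, which gave a log2 ratio of -0.20. *Sftpa1* in these cells had 20804 and 26309.9 CPM, which gave 0.34. Across the 4 depth ranges the ratio of *Sftpc* ran from -0.22 (2000 to 4000 UMIs) to -0.11 (8000 UMIs and more), and that of *Sftpa1* from 0.52 (under 2000 UMIs) to 0.28 (8000 UMIs and more). Both genes kept their side of control at every depth, and the distance of *Sftpa1* from 0 was smaller in deeper cells.

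Cluster 12, the shallow AT2-like cells, differed from the other AT2-like cells in which surfactant genes it held. *Sftpc* was at 107390.0 CPM in control cells of cluster 12 and at 313681 CPM in the other control AT2-like cells (log2 ratio -1.55), and the same ratio in *Gli1 HHIPCKO* was -1.54. *Napsa* showed ratios of -1.47 and -1.48, and *Sftpa1* of -1.29 and -1.21. For *Abca3* the ratio was on the other side of 0, at 0.98 in control and 1.11 in *Gli1 HHIPCKO*, and *Sftpb* was at 0.45 and 0.63. The nuclear RNA *Malat1* (1.74 and 1.91), the nuclear RNA *Neat1* (2.38 and 2.29) and the mitochondrial transcript *mt-Co1* (2.10 and 2.33) were higher in cluster 12 in both libraries, and their part in these differences was not tested. The remaining 4 members were nearer to 0: *Sftpd* was at -0.30 (-0.41 to -0.19) in control and 0.07 (-0.05 to 0.20) in *Gli1 HHIPCKO*, *Slc34a2* at -0.05 and -0.35, *Lpcat1* at -0.07 and -0.47, and *Lamp3* at -0.10 (-0.32 to 0.11) and -0.30 (-0.64 to 0.01). As CPM, *Sftpc*, *Napsa* and *Sftpa1* were thus lower and *Abca3* and *Sftpb* higher in the shallow cells of both libraries. The 9 genes together were at 131539 CPM in control cells of cluster 12, against 352751 in cluster 0 and 337527 in cluster 1. In *Gli1 HHIPCKO* they were at 123652 CPM, against 326548 and 315924. A smaller share of *Sftpc* raises the CPM of all other genes. These ratios were not taken with the 9 genes left out of the total. The cells of cluster 12 were clustered without the members, so these values were not used to form it.

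**Figure D2:**
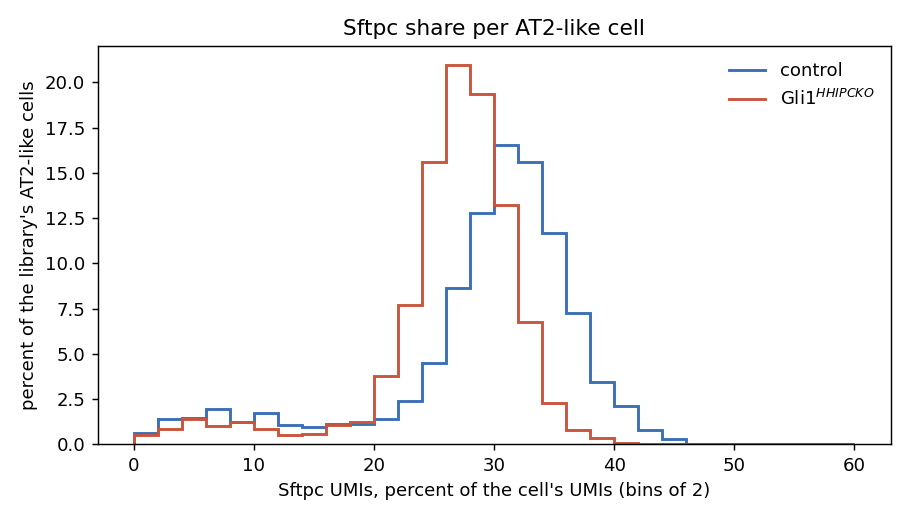
*Sftpc* UMIs as percent of each AT2-like cell's UMIs (horizontal axis, bins of 2) against percent of the library's AT2-like cells (vertical axis), for 3325 control and 2991 *Gli1 HHIPCKO* cells. The main peaks overlap around medians of 30.9% (control) and 27.4% (*Gli1 HHIPCKO*), with a smaller group of cells below 10% in both.

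Over single AT2-like cells, the median share of *Sftpc* was 30.9% of the cell's UMIs in control (quartiles 27.1% and 34.1%) and 27.4% in *Gli1 HHIPCKO* (24.6% and 29.8%). The 2 distributions overlapped widely. *Sftpc* was under 10% of UMIs in 220 control cells (6.62%) and 147 *Gli1 HHIPCKO* cells (4.91%). *Sftpa1* had a median of 17.5 per 1000 UMIs in control (quartiles 11.9 and 23.5) and 24.6 in *Gli1 HHIPCKO* (18.96 and 30.7), so the upper quartile of control lay below the median of *Gli1 HHIPCKO*. The spread between cells of 1 mouse is not a spread between mice.

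Shares of cells with at least 1 UMI were compared after each cell was thinned to 2000 UMIs, which left out 441 control and 240 *Gli1 HHIPCKO* AT2-like cells. *Sftpc*, *Sftpb* and *Sftpa1* were then found in 99.9% to 100% of AT2-like cells of both libraries, and *Napsa* in 99.4% and 99.5%. *Slc34a2* was found in 97.9% and 98.7%, and *Sftpd* in 94.1% and 96.7%. Fewer AT2-like cells had *Lpcat1*, at 79.8% (78.3% to 81.3%) in control and 85.1% (83.7% to 86.4%) in *Gli1 HHIPCKO*, and unthinned it was in 91.0% and 95.02%. *Abca3* was in 69.9% (68.2% to 71.6%) and 65.1% (63.3% to 66.9%) of thinned cells, and in 89.2% and 91.1% of unthinned cells. For *Abca3* the thinned shares followed the CPM and the unthinned shares, which also reflect depth, had the opposite order. *Lamp3* was in 58.5% and 61.0% of thinned cells (78.7% and 86.4% unthinned).

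Free RNA in the droplets sets a background for such shares, and it was read from myofibroblast-like cells (medians of 2697 and 2806 UMIs, with 498 and 513 cells left out by thinning). *Sftpc* was found in 96.6% of these cells in control and 87.3% in *Gli1 HHIPCKO*, so the presence of a *Sftpc* UMI did not mark AT2 cells in these libraries. *Sftpa1* was found in 25.7% and 24.3%, and *Sftpb* in 9.01% and 8.22%. For the other 6 genes the share was between 0.422% (*Lamp3*) and 7.01% (*Lpcat1*) in control, and between 0.742% (*Lamp3*) and 7.31% (*Lpcat1*) in *Gli1 HHIPCKO*, against 58.5% or more in AT2-like cells. What the shares of *Abca3* and *Lpcat1* hold besides free RNA was not tested. Detection in AT2-like cells was above these shares for all 9 genes, by a narrow margin for *Sftpc* alone.

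Across the classes with at least 50 cells (11 in control and 10 in *Gli1 HHIPCKO*), AT2-like cells had the highest CPM of every member in both libraries. In control, endothelial-like cells were next for all 9 genes, at 69669.7 CPM of *Sftpc*. Their intervals overlapped those of ciliated-like and immune-like cells for *Abca3*, however, and of immune-like cells for *Napsa*. Immune-like cells (60713 CPM), mesothelial-like cells (41782 CPM), red cell-like cells (35063 CPM) and smooth muscle-like cells (30892 CPM) followed for *Sftpc*. Pericyte-like cells were at 7843 CPM, and the lowest levels were in the adventitial fibroblast-like (3505 CPM), ciliated-like (3480.3 CPM), alveolar fibroblast-like (2824 CPM) and myofibroblast-like (2745 CPM) classes. The intervals of adventitial fibroblast-like and ciliated-like cells overlapped, as did those of alveolar fibroblast-like and myofibroblast-like cells, and all other neighbours in this order were apart by more than counting error.

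In *Gli1 HHIPCKO* the order of *Sftpc* after AT2-like cells was red cell-like (49545 CPM), mesothelial-like (47223 CPM), endothelial-like (43091 CPM), smooth muscle-like (30654 CPM), pericyte-like (8208 CPM), alveolar fibroblast-like (2680.5 CPM), myofibroblast-like (1928 CPM), adventitial fibroblast-like (1429 CPM) and ciliated-like cells (985 CPM), with no overlap of neighbours. AT2-like cells stood above the next class by 3.01-fold (*Abca3*) to 4.92-fold (*Sftpd*) in control and by 3.87-fold (*Abca3*) to 5.86-fold (*Napsa*) in *Gli1 HHIPCKO*. The lowest class in control was the myofibroblast-like for *Sftpc*, *Sftpb*, *Lamp3* and *Slc34a2*, the alveolar fibroblast-like for *Sftpa1*, *Sftpd*, *Abca3* and *Napsa*, and the ciliated-like for *Lpcat1*, and for each of the 9 genes its interval overlapped that of the class above it. *Abca3* had an order of its own in that ciliated-like cells, among the 5 lowest classes for each of the other 8 members, held 156 CPM (126 to 192) of it in the control mouse against 101 CPM (71.3 to 140) in the mutant mouse. Their intervals overlapped those of both neighbours in the order. In *Gli1 HHIPCKO*, the class next to AT2-like cells was the red cell-like for *Sftpc*, *Sftpa1*, *Lamp3*, *Slc34a2* and *Napsa*, the mesothelial-like for *Sftpb* and *Sftpd*, and the endothelial-like for *Abca3* and *Lpcat1*, and it overlapped its lower neighbour for all but *Sftpc* and *Sftpa1*.

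These orders outside AT2-like cells depended on how droplets with more than 1 cell were treated. With doublet-like cells left out and the rest clustered again, *Sftpc* in smooth muscle-like cells stood at 3569 (control) and 3471 CPM (*Gli1 HHIPCKO*) in place of 30892 and 30654 CPM. Mesothelial-like cells were then at 10841 and 20939 CPM, endothelial-like cells at 50853 and 4339 CPM, and pericyte-like cells at 4069 and 2528 CPM of *Sftpc*. Red cell-like cells were at 19679 and 31562 CPM, and immune-like cells of control at 30485 CPM. The AT2-like level of *Sftpc* hardly moved, at 308305 and 273287 CPM. With every barcode kept, smooth muscle-like cells were at 5514 and 2832 CPM of *Sftpc*, so their place in the order also moved with the clustering. Red cell-like cells of *Gli1 HHIPCKO* were then at 32224 CPM, below endothelial-like (48480 CPM) and mesothelial-like cells (42977 CPM). The sums of the middle classes came from few cells. In mesothelial-like cells of control the median cell had 1811 CPM of *Sftpc*, whereas the 90th percentile had 113412 CPM. Over the 10 other classes of control the median cell had between 1508 and 3988 CPM of *Sftpc*, a far narrower range than the sums.

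**Figure D3:**
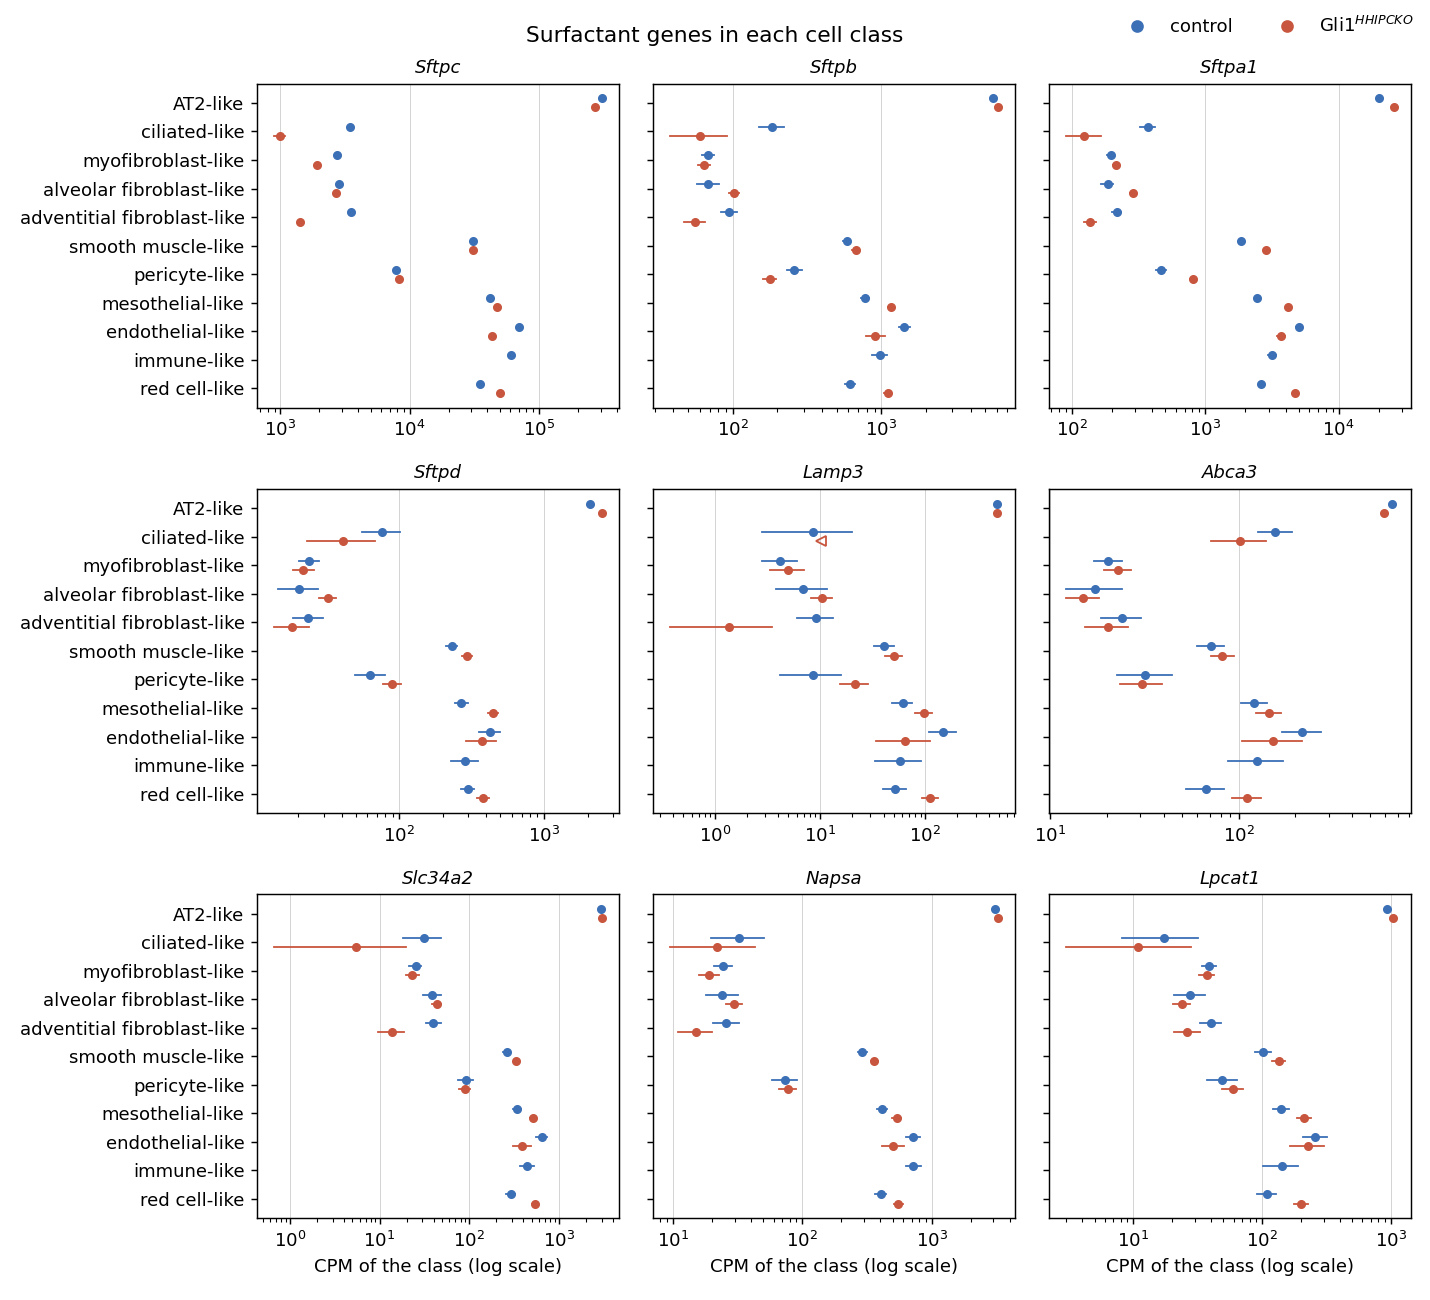
CPM of each of the 9 genes (horizontal axes, log scale, own range per gene) in each class with at least 50 cells, control and *Gli1 HHIPCKO*; points are class sums, lines exact 95% Poisson intervals, and the open triangle is a count of 0 drawn at the upper limit of its interval (*Lamp3*, ciliated-like, 10.1 CPM). AT2-like cells have the highest level of every gene, and for *Sftpc* the other classes run from 2745 to 69669.7 CPM in control.

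Cells with under 0.1% of their UMIs from the AT2 markers other than *Lyz2* were therefore taken from each class, in order to leave out droplets that held an AT2 cell as well. This limit was chosen after the data were seen. It kept 2320 of 2395 control and 2194 of 2265 *Gli1 HHIPCKO* myofibroblast-like cells, and left out 17.1% of control endothelial-like and 27.5% of *Gli1 HHIPCKO* red cell-like cells. In these AT2-marker-poor cells each member was set against *Sftpc* and compared with the ratio of all AT2-like cells of the library. That ratio is no fixed property of AT2-like cells, because the shallow cluster 12 was itself at 5.51 and 6.16 times it for *Abca3*, 3.89 and 4.43 times for *Sftpb*, 2.34 and 3.04 times for *Sftpd*, and 2.73 and 2.10 times for *Lpcat1*. In the same cluster *Slc34a2* was at 2.78 and 2.28 times and *Lamp3* at 2.68 and 2.35 times. The ratio of free RNA itself was not measured. AT2-like cells had 64.6 UMIs of *Sftpa1* per 1000 UMIs of *Sftpc* in control and 94.9 in *Gli1 HHIPCKO*.

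*Sftpa1* kept close to that ratio in the AT2-marker-poor cells of every class with at least 50 cells, between 0.83 and 1.24 times the AT2-like value in the 10 other classes of control and between 1.05 and 1.47 times in the 9 of *Gli1 HHIPCKO*. Without the marker limit, it was at 1.64 times (1.42 to 1.89) in control ciliated-like cells. *Slc34a2* was between 0.56 and 1.24 times the AT2-like ratio in control and between 0.314 and 1.43 in *Gli1 HHIPCKO*. Neither gene was above the AT2-like ratio by more than 1.5 times in any of these classes.

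*Abca3* was farther from the ratio. In AT2-marker-poor ciliated-like cells it stood at 138 CPM (105 to 178) in the control mouse against 113 CPM (77.6 to 158) in the mutant mouse, which was 28.8 times (21.8 to 37.5) and 52.1 times (35.2 to 74.9) the ratio to *Sftpc* of AT2-like cells. Mesothelial-like cells had 56.9 and 55.5 CPM of *Abca3*, or 15.9 times (12.1 to 20.5) and 19.9 times (14.6 to 26.6) that ratio. Myofibroblast-like cells had 18.0 and 18.1 CPM, or 3.73 times (3.09 to 4.48) and 6.05 times (4.99 to 7.27), not above AT2-like cluster 12. These levels were alike in the 2 libraries, and the source of the UMIs was not tested. All 10 other classes of control and all 9 of *Gli1 HHIPCKO* were above 1 for *Abca3*, with the lowest at 1.75 and 1.99 times in pericyte-like cells.

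*Lpcat1* was also above the ratio, though not beyond counting error in ciliated-like cells of control, the class that stood out for *Abca3*. In these AT2-marker-poor ciliated-like cells *Lpcat1* had 4 UMIs, or 9.37 CPM (2.55 to 24.0), and was at 1.37 times (0.373 to 3.52) the ratio. In myofibroblast-like cells it stood at 37.0 CPM (32.5 to 42.0) in the control mouse against 33.6 CPM (29.3 to 38.5) in the mutant mouse, or 5.39 times (4.73 to 6.12) and 6.39 times (5.55 to 7.32) the AT2-like ratio. Endothelial-like cells were at 6.40 and 8.28 times. The highest values were in cluster 20, an unnamed cluster led by *Car1*, *Rhd*, *Mki67* and histone genes, where AT2-marker-poor cells (95 and 81) had 75.1 CPM (53.7 to 102) and 158 CPM (125 to 196) of *Lpcat1*, 21.2 times (15.01 to 29.2) and 58.8 times (45.5 to 75.3) the ratio of AT2-like cells.

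*Napsa* was near the AT2-like ratio in most classes, for example 0.94 times in control and 0.79 times in *Gli1 HHIPCKO* myofibroblast-like cells. The exceptions were immune-like cells and some unnamed clusters. In 71 AT2-marker-poor immune-like cells of control it was at 264 CPM (197 to 346), or 12.1 times (8.93 to 16.2) the AT2-like ratio, and in 17 such cells of *Gli1 HHIPCKO* at 195 CPM (93.5 to 358), or 9.50 times (4.41 to 18.3). Cluster 13, led by *Cd79a*, *Cd79b*, *Ly6d* and *Ighm* (312 and 145 AT2-marker-poor cells) had 308 CPM (267 to 353) and 429 CPM (358 to 510.1), or 10.3 times (8.91 to 11.9) and 17.7 times (14.5 to 21.4). In cluster 27, led by *Pclaf*, *Rrm2* and histone genes, the 51 and 16 AT2-marker-poor cells were at 7.89 times (5.08 to 11.8) and 11.1 times (6.15 to 18.7). Cluster 20 was at 2.58 times (1.46 to 4.22) and 2.16 times (0.981 to 4.15). In the 34 and 13 cells of cluster 30, led by *Igll1*, *Vpreb1* and *Mzb1* and taken without the marker limit, *Napsa* was at 371 and 819 CPM, with *Sftpc* at 10780.4 and 28658 CPM.

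*Sftpb* and *Sftpd* were above the ratio in airway cells, though in ciliated-like cells by no more than in AT2-like cluster 12 beyond counting error. In AT2-marker-poor ciliated-like cells *Sftpb* stood at 105 CPM (76.9 to 141) in the control mouse against 68.3 CPM (41.7 to 106) in the mutant mouse, or 2.54 times (1.84 to 3.43) and 3.09 times (1.86 to 4.86). *Sftpd* was at 2.46 times (1.40 to 4.01) and 2.25 times (0.819 to 4.95) in the same cells. In the 28 airway secretory-like cells of control, taken without the marker limit, *Sftpd* had 266 UMIs and was at 7.05 times (6.21 to 7.98) the AT2-like ratio, *Sftpb* was at 4.10 times (3.70 to 4.52), *Abca3* at 3.46 times (2.48 to 4.69) and *Sftpa1* at 2.64 times (2.47 to 2.83). Of these, *Sftpb* and *Abca3* were not above AT2-like cluster 12 beyond counting error. The *Sftpc* of this class came largely from few cells, with 20712 CPM in the sum and 1107 CPM in the median cell. Of its cells, 71.4% were not AT2-marker-poor. *Gli1 HHIPCKO* had 5 cells of that class, too few to compare. *Lamp3* had few UMIs in the AT2-marker-poor cells of other classes, with 45 in the mesenchymal ones of each library. Its ratios there ran from 0.202 to 3.02 times in control and from 0 to 1.498 times in *Gli1 HHIPCKO*.

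**Figure D4:**
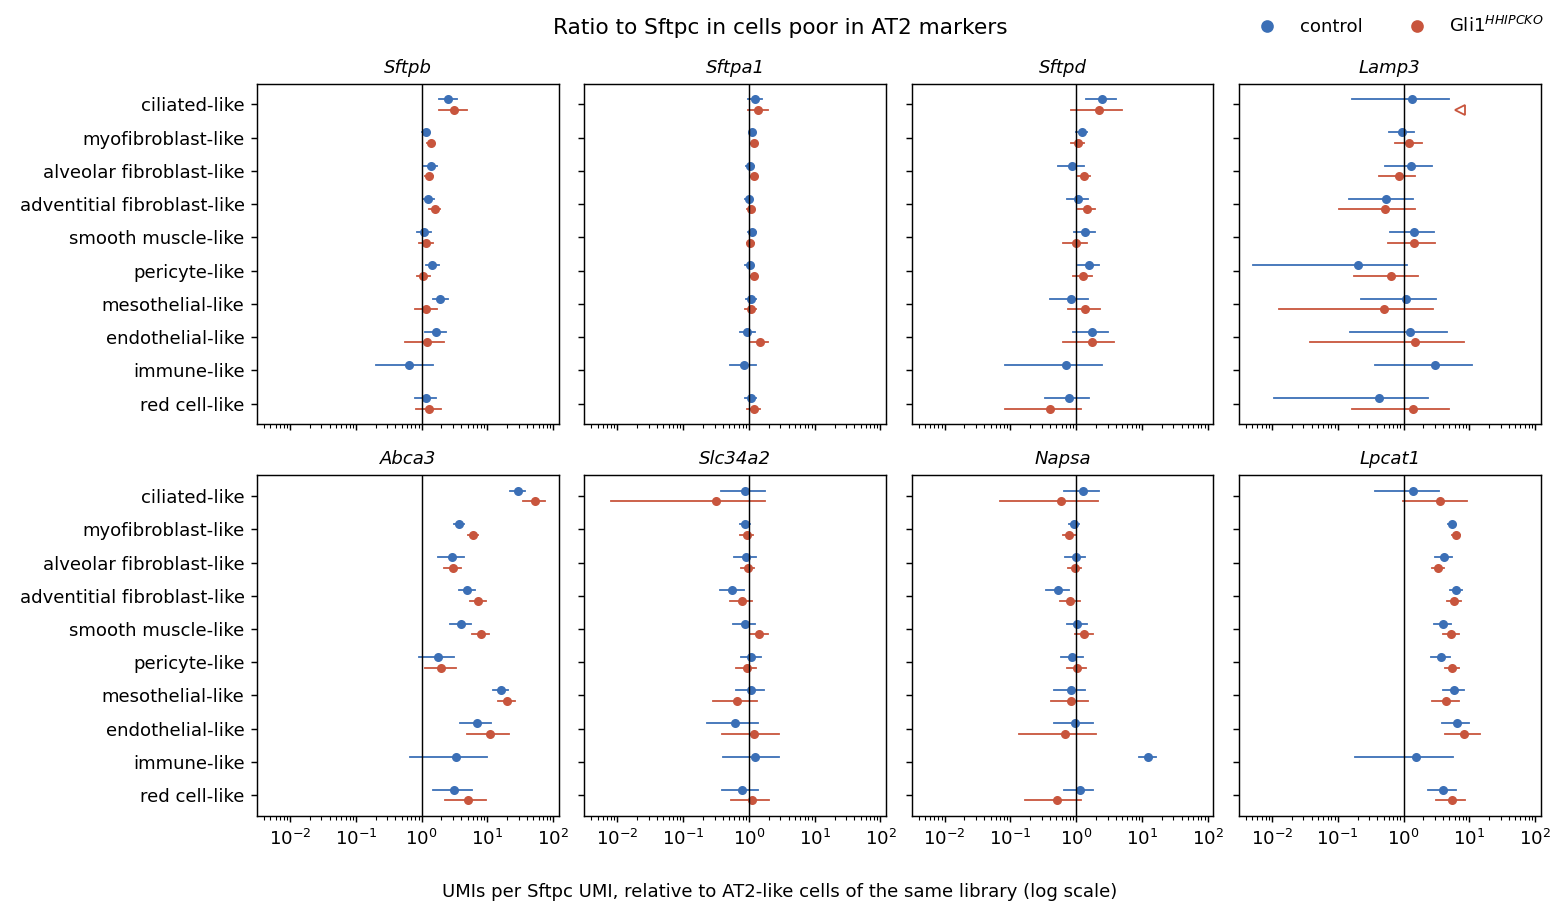
UMIs per *Sftpc* UMI relative to AT2-like cells of the same library (horizontal axes, log scale) in AT2-marker-poor cells of each class with at least 50 cells, for the 8 members other than *Sftpc*; points are ratios, lines exact 95% binomial intervals, and the open triangle is a count of 0 at its upper limit. *Sftpa1* stays near 1 in every class shown, whereas *Abca3* reaches 28.8 (control) and 52.1 (*Gli1 HHIPCKO*) in ciliated-like cells and *Napsa* 12.1 in control immune-like cells.

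In all mesenchymal classes together, the AT2-marker-poor cells (4899 in control and 6533 in *Gli1 HHIPCKO*) gave the level of the 9 genes in the compartment that includes the Gli1-expressing cells. *Sftpc* stood at 2069 CPM (2046 to 2091) in the control mouse against 1289 CPM (1274 to 1305) in the mutant mouse, and the log2 ratio, -0.68 (interval -0.71 to -0.66), stayed within 2-fold. Without the marker limit *Sftpc* was at 10213 and 8267 CPM in the mesenchymal classes (log2 ratio -0.31, interval -0.31 to -0.30), so its ratio depended on that limit. By class, the ratio of *Sftpc* ran from -0.73 (pericyte-like) to -0.39 (mesothelial-like) in AT2-marker-poor cells. Without the limit it ran from -1.29 in adventitial fibroblast-like cells, where *Sftpc* fell by more than 2-fold, over -0.51 in myofibroblast-like and -0.08 in alveolar fibroblast-like cells, to 0.18 in mesothelial-like cells. *Sftpa1* was at 144 CPM (138 to 150) and 141 CPM (136 to 146), with a log2 ratio of -0.03 (interval -0.11 to 0.05) against 0.34 (0.30 to 0.37) without the limit. These levels were 0.671% and 0.472% of the AT2-like level for *Sftpc*, and 0.722% and 0.544% for *Sftpa1*. *Abca3* was at 2.91% and 2.64% of its AT2-like level, with 19.1 and 15.6 CPM. *Lpcat1* was at 3.41% and 2.44%, with 31.8 and 25.4 CPM. For these 2 genes the mesenchymal level was thus a larger fraction of the AT2-like level than for the other 7, which lay between 0.435% (*Napsa*, *Gli1 HHIPCKO*) and 0.847% (*Sftpb*, control).

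Genes around the 9 members were followed in AT2-like cells in 6 lists. Of 20 genes of lipid supply, 18 had at least 50 UMIs, 0 were past 2-fold in either direction and their median log2 ratio was -0.05, beside -0.01 over all 11069 genes. The 2 with the most UMIs were *Fabp5*, a fatty acid binding protein, at 1274 and 1307 CPM (0.04), and *Scd1*, a stearoyl-CoA desaturase, at 1105 and 821 CPM (-0.43). Of 20 genes of the lamellar body and of proprotein processing, 19 were measured with a median of 0.08, and 1 was past 2-fold. That gene, *Pgc*, the protease pepsinogen C that also cuts the SP-B precursor, was at 52.1 CPM in the control mouse and fell to 22.8 CPM in the mutant mouse (log2 ratio -1.19, interval -1.37 to -1.01). *Ctsh*, the cathepsin that processes SP-B and SP-C precursors, was at 1099 and 1292 CPM (0.23), and *Cd63*, a membrane protein of late endosomes, at 559 and 581 CPM (0.06).

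Of 15 transcription factors and regulators of surfactant genes, 14 were measured, and the median was 0.18. *Cebpd* was at 261 and 330.5 CPM (0.34), and *Etv5* at 277 and 310.4 CPM (0.16). All 8 genes of surfactant turnover were measured, and their median was -0.06. *Prdx6*, a peroxiredoxin with phospholipase activity towards surfactant lipid, was at 443 and 705 CPM (0.67, interval 0.63 to 0.71), and *Adgrf5*, a receptor that limits the surfactant pool, at 136 and 154 CPM (0.18). No gene of either list was past 2-fold.

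Among 20 genes listed as paralogues of the members, whose sequences were not compared here, 11 were measured, with a median of -0.06. *Cd68*, a relative of *Lamp3*, rose from 22 to 78 UMIs (1.45 and 4.59 CPM), with a log2 ratio of 1.66 (interval 0.97 to 2.42), beside 0.588 and 0.962 CPM in AT2-marker-poor mesenchymal cells. *Sfta2* was at 1288 and 1319.7 CPM (0.04) and *Ctsd* at 66.8 and 64.3 CPM (-0.06). Of 10 further secreted or surface genes of AT2 cells, all 10 were measured and the median was 0.01. *Lcn2*, an iron-binding defence protein, rose from 951 to 2106 CPM (log2 ratio 1.15, interval 1.12 to 1.17). *Scgb3a2*, a secretoglobin, fell from 60.8 to 14.3 CPM (log2 ratio -2.09, interval -2.30 to -1.88). In AT2-marker-poor mesenchymal cells both genes differed in the same direction, at 4.64 and 10.9 CPM for *Lcn2* and 5.56 and 2.79 CPM for *Scgb3a2*. Airway secretory-like cells numbered 28 in control and 5 in *Gli1 HHIPCKO*. The part of free RNA in these ratios was not tested. The 2 with the most UMIs, *Lyz1* and *Cd74*, were at 5930.4 and 7844 CPM (0.40) and at 6402 and 6275 CPM (-0.03). Measured genes numbered 18, 19, 14, 8, 11 and 10 in the 6 lists. Of these, 4 were past 2-fold, 2 of them upward and 2 downward, where 1.35% and 1.08% of all 11069 genes were. The lists were chosen with earlier results of these data known, so this count is no result about them.

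The genes whose levels most resembled the mean profile of the 9 members were found by Pearson correlation of log2(CPM + 1) over the 26 sums of 13 classes by 2 libraries. They were *Bex4* (r = 0.970), *Rbpjl* (0.963), *Lyz2* (0.956), *S100g* (0.953), *H2-Eb1* (0.949), *Hc* (0.942), *Chil1* (0.939) and *Cxcl15* (0.937). Of these 8 genes, *Rbpjl*, *Lyz2*, *S100g*, *Hc* and *Cxcl15* are AT2 markers that were used to name the classes. The members themselves had r from 0.765 (*Abca3*) to 0.993 (*Sftpc*) with their mean. The 26 points share libraries, depth and free RNA, so r is a description.

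By the GENCODE vM21 annotation of GRCm38, 3 of the members are on chromosome 14: *Sftpc* (ENSMUSG00000022097, chr14:70520949-70524081, minus strand), *Sftpa1* (ENSMUSG00000021789, chr14:41131782-41136452, plus strand) and *Sftpd* (ENSMUSG00000021795, chr14:41172214-41185149, minus strand). *Sftpa1* and *Sftpd*, the collectin genes, had the highest log2 ratios of the 9 in AT2-like cells. *Sftpb* (ENSMUSG00000056370) is at chr6:72304610-72314371 on the plus strand. *Lamp3* (ENSMUSG00000041247) is at chr16:19653378-19706375 on the minus strand, and *Abca3* (ENSMUSG00000024130) at chr17:24351950-24410201 on the plus strand. *Slc34a2* (ENSMUSG00000029188) is at chr5:53038081-53071664, *Napsa* (ENSMUSG00000002204) at chr7:44572380-44586862 and *Lpcat1* (ENSMUSG00000021608) at chr13:73467197-73516422, all on the plus strand.

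Since the 9 genes shared 1 class of highest level, the promoters of 3 of them are shown, each 300 bases long. Promoter sequences (RefSeq, GRCm38.p6) were matched for 6 of the 9 members, and none was matched for *Sftpc*, *Sftpd* and *Napsa*. They were searched on both strands for CTCAAG (a core of NKX2-1 sites), TGTTTAC (FOXA), TTGCNNAA (C/EBP) and TATAAA, which occur in 15.9%, 3.65%, 10.8% and 13.6% of 32851 mouse promoters of the same length. CTCAAG was in *Sftpb* and *Sftpa1*, TATAAA in *Sftpa1*, TGTTTAC in *Lamp3*, and TTGCNNAA in *Slc34a2*, whereas *Abca3* and *Lpcat1* had none of the 4. The window of *Slc34a2* (chr5:53049103-53049402) lay with all 300 bases inside the gene as annotated above, 45 of them in an exon. A match describes letters in the window, and binding was not measured. Capitals mark the matches in the sequences of *Sftpb* (chr6:72304360-72304659, plus strand, 50 bases in an exon), *Sftpa1* (chr14:41131538-41131837, plus strand, 56 bases in the gene and 51 of them in an exon) and *Lamp3* (chr16:19706316-19706615, minus strand, 60 bases in an exon).
Sftpb: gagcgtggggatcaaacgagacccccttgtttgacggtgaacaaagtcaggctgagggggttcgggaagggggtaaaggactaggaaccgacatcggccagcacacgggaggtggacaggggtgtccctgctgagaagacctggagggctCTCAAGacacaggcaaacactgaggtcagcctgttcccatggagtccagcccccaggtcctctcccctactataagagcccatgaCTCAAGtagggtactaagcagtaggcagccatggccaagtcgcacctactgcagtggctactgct
Sftpa1: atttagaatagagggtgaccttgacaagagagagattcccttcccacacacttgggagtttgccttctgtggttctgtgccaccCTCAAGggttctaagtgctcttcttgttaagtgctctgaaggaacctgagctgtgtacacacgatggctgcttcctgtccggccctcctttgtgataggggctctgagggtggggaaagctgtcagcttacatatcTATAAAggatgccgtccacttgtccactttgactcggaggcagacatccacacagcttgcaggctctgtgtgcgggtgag
Lamp3: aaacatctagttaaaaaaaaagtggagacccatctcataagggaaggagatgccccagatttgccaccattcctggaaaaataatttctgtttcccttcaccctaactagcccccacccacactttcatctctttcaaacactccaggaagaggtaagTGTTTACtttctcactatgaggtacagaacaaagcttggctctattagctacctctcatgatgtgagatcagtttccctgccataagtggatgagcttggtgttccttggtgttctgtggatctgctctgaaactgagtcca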

How the data were processed

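Single cells of sorted lung stroma and epithelium were measured in 1 control and 1 *Gli1 HHIPCKO* mouse at day 14. The deposited values are UMI counts per gene and barcode, made by the authors with Cell Ranger against mm10. Per the file headers and the methods of the study the version was 6.1.0, and the labels name 3.1.0. The labels name a 3′ kit and the methods a 5′ kit, so which end of a transcript was counted is not settled. No normalisation had been applied to the counts.

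Here, the filters on cells were 200 to 6000 genes and no more than 10% of UMIs from mitochondria, which left 10917 of 10999 and 12115 of 12350 barcodes. Counts were scaled to 10000 per cell, and 2000 variable genes, 30 principal components, 20 neighbours and Leiden clustering at resolution 1 gave 33 clusters over both libraries. The cluster led by both ciliated and airway secretory markers (418 cells) was clustered again at resolution 0.5 into 5, a step added after the clusters were seen, which made 37 and gave the ciliated-like and airway secretory-like classes. The 9 members, the listed genes and *Hhip*, 103 genes in all, were held out of clustering. Clusters were named from fixed markers of 18 classes, with naming thresholds set after the clusters were seen, and the alveolar and ductal myofibroblast markers and the smooth muscle markers were each read as 1 class. This left 13 named classes and 12 unnamed clusters (15.9% of control and 14.9% of *Gli1 HHIPCKO* cells). No doublets were removed; an alternative left out 953 and 1174 doublet-like cells (8.73% and 9.69%).

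A level is the summed UMIs of a class per 1000000 of its UMIs. Intervals are exact Poisson for levels, Clopper-Pearson for shares, and conditional binomial for ratios, at 95%. Genes with at least 50 UMIs over both libraries in AT2-like cells entered the 2-fold counts. In the ratios over all genes and lists, a count of 0 was set to 0.5 UMIs. The threshold of 0.1% for AT2-marker-poor cells was set after the data were seen. Named genes are the members, *Hhip*, each listed gene past 2-fold, the 2 of each list with the most UMIs, and the 8 genes most correlated with the members; the genes that lead a cluster, and *Xist*, *Malat1*, *Neat1* and *mt-Co1*, were added after their values were seen. Members and lists were chosen with earlier results of these data known. Scripts were tested on simulated counts. Clustering used scanpy 1.11.5 with leidenalg 0.10.2, igraph 0.11.9 and scikit-learn 1.9.0, intervals scipy 1.17.1, tables pandas 2.3.3 with numpy 2.4.6, and figures matplotlib 3.10.9, all under Python 3.11.15.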

Additional observations from a re-analysis of the deposited data

Results flagged for a closer look

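Of the 9 genes, 4 lay above control in AT2-like cells and below control in the AT2-marker-poor mesenchymal cells, with neither interval including 0. The share of all genes with this pattern was not counted, so 4 of 9 is no result about the members. *Sftpb* had a log2 ratio of *Gli1 HHIPCKO* over control of 0.097 in AT2-like cells and -0.364 in mesenchymal cells. *Slc34a2* was at 0.041 and -0.324, *Napsa* at 0.072 and -0.372, and *Lpcat1* at 0.159 and -0.324. This pattern depended on the marker limit, which was set after the data were seen: over all cells of the mesenchymal classes the ratios were -0.02 for *Sftpb*, 0.05 for *Slc34a2*, -0.05 for *Napsa* and -0.04 for *Lpcat1*, and each interval included 0. The sign of *Slc34a2* in AT2-like cells was the opposite within each AT2-like cluster. The difference between the compartments was not tested, since each was 1 mouse per condition. For *Sftpb*, *Slc34a2* and *Napsa* the mesenchymal level was under 1% of the AT2-like level. *Sftpc*, the member with the most UMIs, had a ratio of -0.68 in the same mesenchymal cells. The part of free RNA in these ratios was not tested.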

How the results depend on the processing

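The summed level of the 9 genes in AT2-like cells had a log2 ratio of -0.121 and was below control in all 21 alternatives, 13 planned and 8 chosen after seeing the data. Among planned ones it was -0.181 with the 9 genes left out of the total, -0.114 centred on the median gene, -0.0894 as a mean over cells, -0.125 without cluster 1, which has *Lcn2* among its 10 leading genes when held-out genes are ranked too, -0.115 in cells gated on marker UMIs, -0.133 with the mesenchymal level subtracted and -0.134 in cells thinned to 2000 UMIs. It stayed within its counting interval with every barcode, without doublet-like cells, at resolutions 0.5 and 2, with each library clustered on its own and with the members in clustering. Among added ones it was -0.111, -0.0954 and -0.0892 in clusters 0, 1 and 12, -0.135 without cluster 12, -0.123 under 2000 UMIs, -0.162 from 2000 to 4000, -0.144 from 4000 to 8000 and -0.0684 from 8000 UMIs. The cause was not tested. The count of members past 2-fold was 0 in every alternative. At 1.5-fold it was 0 over all AT2-like cells, where 5.19% of genes were past the limit upward and 4.90% downward, but *Sftpd* in cluster 12 alone was past it (0.63). *Sftpc*, *Sftpb*, *Sftpa1* and *Sftpd* kept their side of control in all 21, whereas *Lamp3* and *Slc34a2* were on the other side in 6 each, *Lpcat1* in 3, and *Abca3* and *Napsa* in 1 each. Of the listed genes 4 were past 2-fold, and 4 or 5 in the alternatives. All alternatives were run. No paired analysis was possible because each condition was 1 mouse. Thinned to 1000 UMIs, *Lamp3* was found in 38.9% of control and 37.8% of *Gli1 HHIPCKO* AT2-like cells, the opposite order to that at 2000 UMIs. Counting error is the only error that the intervals hold, the sexes of the mice are not stated while *Xist* differs, and droplets that hold more than 1 cell were not removed.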
